A study of Urocitellus parryii with 24 samples.

Results

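Heat shock proteins and their cochaperones were followed in the liver of the Arctic ground squirrel (AGS) in torpor (T), in arousal (A), and in post-reproduction (P). The group held 6 genes, HSPA8, HSPH1, DNAJB4, HSP90AA1, HSP90AB1, and CHORDC1, out of 1329 genes that could be named on a membrane array of 9600 spotted cDNA probes. Each gene was read from 1 probe, and the probe of a gene was found by matching the state means of its row in the gene list of the study to the processed values of the array. The probes were gene0918 (HSPA8), gene3174 (HSPH1), gene6224 (DNAJB4), gene6999 (HSP90AA1), gene5096 (HSP90AB1), and gene0647 (CHORDC1). Liver RNA of 24 animals was hybridized, 1 animal to a membrane.

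The animals were wild-trapped AGS, and the labels name no genetic change in any group. Hibernating animals were kept on a short photoperiod, without food during hibernation, and were staged by radio-transmitted body temperature. There were 4 animals in early torpor and 5 in late torpor, 4 animals in early arousal, soon after rewarming, and 4 in late arousal, several hours later. The control was 7 euthermic animals after reproduction, which the sample labels call summer active. Torpid animals were killed without anesthesia and all other animals under isoflurane, so that anesthesia and torpor cannot be told apart. T was measured cold and A and P warm, and the level of a transcript here cannot be split into its synthesis and its decay.

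Chaperones of the Hsp70 family bind unfolded stretches of other proteins and release them on hydrolysis of ATP. J-domain cochaperones bring clients to Hsp70 and start the hydrolysis, and Hsp110 proteins exchange the nucleotide. Clients pass on to Hsp90, a dimer that other cochaperones guide through its cycle. Heat shock factor 1 drives transcription of many of these genes when proteins unfold, as in heat.

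The names carry a limit. A gene could be named only if it was in the published list, and that list was chosen on these same arrays by an analysis of variance over T, A, and P, with the probe of lowest p kept for each gene. The differences between states below are therefore not independent evidence of a change. They are set beside all probes and beside the 1329 named genes. The paper had also named HSPA8, HSPH1, HSP90AA1, and HSP90AB1 as over-expressed in arousal on these arrays, and HSPH1 and CHORDC1 as decreased in torpor. The direction that these genes share was thus known beforehand and is not independent evidence either. The analysis of variance pooled early and late stages, so early against late within T or within A was not used in choosing the list. A wide spread within a state still made a gene less likely to be listed. Early arousal against late torpor and early torpor against late arousal are parts of the comparison of A with T. They are not free of that choice. HSP90AA1 and HSP90AB1 are close relatives, as are HSPA8 and other Hsp70 genes, and cross-hybridization between relatives was not tested.

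Membranes of 2 filter sets, named A1 and A2 in the scanner headers, were used, and they were uneven over the states. All 9 T animals and 7 of the 8 A animals were on A1 filters, while 5 of the 7 P animals were on A2 filters with 1 A animal, late arousal replicate 2. The filter set moved with the state, and 20.1% of 9596 probes differed between the sets at an adjusted p under 0.05 with the state in the fit. Of the 7 hepatocyte markers (ALB, APOA2, APOB, TTR, FGB, SERPINA1, AMBP) every one was above background on all 24 arrays, with a summed level of 489 to 1297 array medians in T (median 768), 413 to 712 in A (median 584), and 627 to 954 in P (median 712). The summed level of 2 leukocyte markers (LYZ, LAPTM5) lay between 4.66 and 18.4 in T, between 3.62 and 8.69 in A, and between 4.14 and 19.4 in P. That of the 3 stellate cell or fibroblast markers (DCN, LUM, DES) was 1.43 to 3.28 in T (median 2.25). It was 1.67 to 2.75 in A (median 2.24) and 1.81 to 3.69 in P (median 3.07). HBA2, the red blood cell marker, ranged from 0.973 to 7.81 in T, from 0.402 to 2.42 in A, and from 1.55 to 2.42 in P. The part of these cells in the results was not tested, and in whole liver fewer cells of a type and less RNA per cell cannot be told apart.

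A level is the log2 of the background-subtracted signal of a spot over the median of the array, so that 0 is the median spot of that array. It is a level relative to the other transcripts of the sample and not an amount per cell. A difference is a difference of mean log2 levels, tested with limma across all probes, and was called at a Benjamini-Hochberg adjusted p under 0.05. Levels are compared between groups for 1 probe and never between probes.

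**Figure D1:**
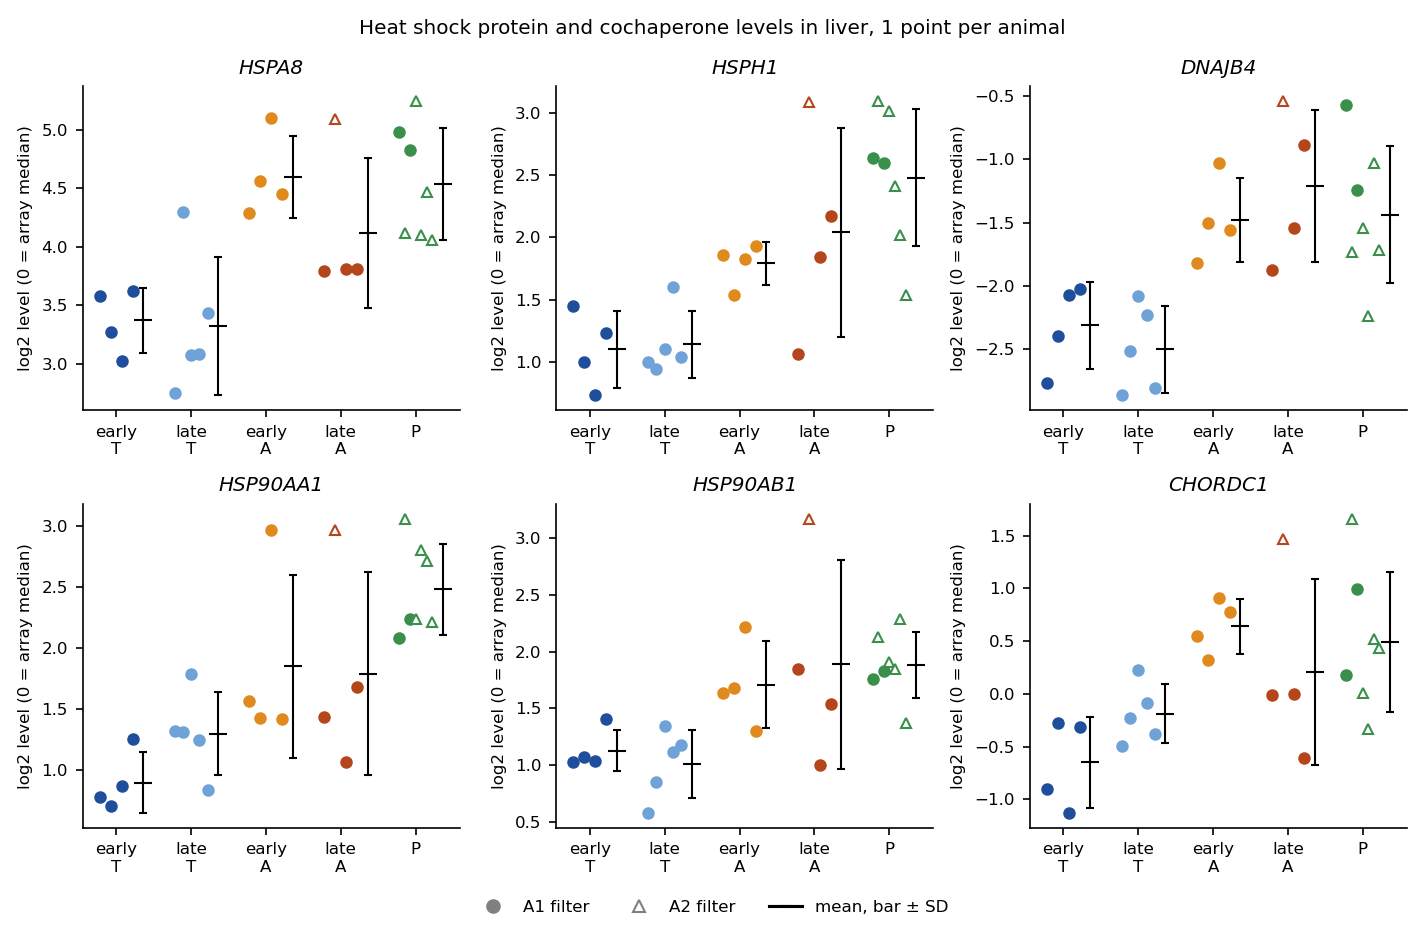
The log2 level of each gene (vertical axis, 0 is the array median) in early and late torpor (T), early and late arousal (A), and post-reproduction (P), with 1 point per animal, filled circles for A1 filters, open triangles for A2 filters, and the mean ± SD beside each group. The 9 T animals of DNAJB4 lie between -2.86 and -2.02, below all 8 A animals, and the open triangle of late arousal is the highest late arousal point in all 6 panels.

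HSPA8, the constitutive Hsp70 of the cytosol, was low in torpor and high in arousal and post-reproduction. Its levels in early torpor were 3.58, 3.27, 3.02, and 3.62, and in late torpor 2.75, 4.30, 3.07, 3.08, and 3.43. In early arousal they were 4.29, 4.56, 5.10, and 4.45, and in late arousal 3.79, 5.09, 3.81, and 3.81. The P animals spanned 4.06 to 5.25 with a median of 4.47. A single T animal, late torpor replicate 2 at 4.30, reached into the range of A and P, and the other 8 T animals lay below all A and P animals.

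The mean of HSPA8 was 3.35 ± 0.45 in T (SD, n = 9), 4.36 ± 0.54 in A (n = 8), and 4.54 ± 0.48 in P (n = 7). HSPA8 fell by 1.02 from A to T, a 2.02-fold lower level in T (log2 difference -1.02, SE 0.23, adjusted p = 0.0391). With the filter set in the fit as a block it was -1.02 (adjusted p = 0.0313), and on A1 filters alone it was -0.91 (adjusted p = 0.0361). The call was close to its threshold: it held in 13 of 24 fits that left out 1 array and was lost without any 1 of the 4 early arousal arrays, early torpor replicates 2, 3, and 4, or late torpor replicates 1, 3, 4, and 5, with adjusted p between 0.0532 and 0.071 and differences between -1.05 and -0.91. HSPA8 was also lower in T than in P, by -1.20 (SE 0.24, adjusted p = 0.00261). With the block this was -1.20 with an adjusted p of 0.0744, and on A1 filters alone, which hold 2 P animals, it was -1.56 (adjusted p = 0.0237).

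HSPH1, the Hsp110 protein that exchanges the nucleotide of Hsp70, stood lowest in T and highest in P, with A between. The early torpor levels were 1.45, 1.0, 0.73, and 1.23, and the late torpor levels 1.0, 0.94, 1.10, 1.60, and 1.04. Early arousal gave 1.86, 1.54, 1.83, and 1.93, and late arousal 1.06, 3.09, 1.84, and 2.17. P spanned 1.54 to 3.10 with a median of 2.60. Early arousal lay close together near the top of T, with replicate 2 (1.54) below the highest T animal (1.60), while late arousal held both a value inside the T range and one at the top of the P range.

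HSPH1 was 1.36 lower in T than in P (log2 difference -1.36, SE 0.23, adjusted p = 0.000756), which is 2.56-fold. On A1 filters alone the difference was -1.50 (adjusted p = 0.0043), and with the filter block it was -1.08 and not called (adjusted p = 0.0889). Between T and A it was -0.79 (95% interval -1.25 to -0.34, adjusted p = 0.0862). Between A and P it was -0.56 (95% interval -1.05 to -0.08, adjusted p = 0.133). Without late arousal replicate 2 the difference between A and P was -0.73 and passed the threshold (adjusted p = 0.0198). It passed in only this 1 of 24 fits that left out 1 array.

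DNAJB4, a J-domain cochaperone of the class that contains the classical Hsp40, separated T from A without overlap. Early torpor had levels of -2.76, -2.39, -2.07, and -2.02, and late torpor of -2.86, -2.51, -2.08, -2.23, and -2.80. Early arousal had -1.82, -1.50, -1.03, and -1.56, and late arousal -1.87, -0.54, -1.54, and -0.89. P spanned -2.24 to -0.57 with a median of -1.54, so that P replicate 5 lay inside the T range. All 9 T animals lay below all 8 A animals, which was so for 0.0423% of 9463 probes without missing values, 4 probes in all. Of those 4 probes, 3 were among the 1329 named genes.

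DNAJB4 was 1.07 lower in T than in A (log2 difference -1.07, SE 0.21, adjusted p = 0.0183), or 2.09-fold. The difference was called with the filter block (-1.08, adjusted p = 0.012), on A1 filters alone (-0.95, adjusted p = 0.0136), and in all 24 fits that left out 1 array, in which it ranged from -1.14 to -0.95. Against P, T was lower by -0.98 (SE 0.22, adjusted p = 0.00668), and this was -1.06 with the block (adjusted p = 0.0891) and -1.51 on A1 filters (adjusted p = 0.0124). DNAJB4 was the dimmest of the 6 probes. Its signal was 1.66 to 6.32 times the background with a median of 2.41, and it was over 2 times the background on 19 of 24 arrays, against medians of 5.59 to 42.8 and 24 of 24 arrays for the other 5. The arrays not over 2 times were early torpor replicates 2 and 4, late torpor replicates 2 and 5, and P replicate 5. The weakest readings thus lay mostly in T, the state that read low. With normexp background correction and an offset of 50 intensity units the difference between T and A was -0.16 (adjusted p = 0.349), and that between T and P was -0.29 (adjusted p = 0.0677). This added offset was above the whole DNAJB4 signal on every T array (16.8 to 34.6 units). An offset of that size shrinks the log2 differences of a dim probe.

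HSP90AA1, the inducible Hsp90 of the cytosol, set T apart from P. Early torpor levels were 0.78, 0.71, 0.87, and 1.26, and late torpor levels 1.32, 1.31, 1.79, 1.25, and 0.84. In early arousal they were 1.57, 1.43, 2.97, and 1.42, and in late arousal 1.44, 2.97, 1.07, and 1.68. P spanned 2.08 to 3.06 with a median of 2.24. Every T animal lay below every P animal, as did 0.371% of 9434 probes. Of those 35 probes, 26 were among the 1329 named genes. Of the 8 A animals, 6 lay between 1.07 and 1.68, inside the T range, and 2 stood at 2.97 near the top of P.

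HSP90AA1 was 1.35 lower in T than in P (log2 difference -1.35, SE 0.25, adjusted p = 0.00135), or 2.55-fold. With the filter block the difference was -0.80 (95% interval -1.42 to -0.18, adjusted p = 0.285), and on A1 filters alone -1.04 (adjusted p = 0.246). T and A differed by -0.69 (95% interval -1.18 to -0.21, adjusted p = 0.156). A and P differed by -0.66 (95% interval -1.18 to -0.14, adjusted p = 0.101). The difference between A and P was called in 2 of 24 fits that left out 1 array, each without 1 of the high A animals. It was -0.82 without early arousal replicate 3 (adjusted p = 0.0341) and -0.82 without late arousal replicate 2 (adjusted p = 0.0183).

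HSP90AB1, the constitutive Hsp90 of the cytosol, was low in T by a smaller margin. Early torpor levels were 1.03, 1.07, 1.04, and 1.41, and late torpor levels 0.58, 0.85, 1.35, 1.12, and 1.18. In early arousal they were 1.64, 1.68, 2.22, and 1.30, and in late arousal 1.85, 3.17, 1.0, and 1.54. P spanned 1.37 to 2.29 with a median of 1.85. Late arousal replicate 2, at 3.17, was above every other animal of the study. The difference between T and P was -0.81 (SE 0.22, adjusted p = 0.019), and with the filter block it was -0.33 (95% interval -0.88 to 0.21, adjusted p = 0.751). On A1 filters alone it was -0.73 (adjusted p = 0.304). T and A differed by -0.73 (95% interval -1.16 to -0.30, adjusted p = 0.0906). In 24 fits that left out 1 array this difference ranged from -0.85 to -0.54. It was called in 1 of them, that without late arousal replicate 3 (-0.85, adjusted p = 0.0418).

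CHORDC1, a zinc-binding cochaperone of Hsp90, was lower in T than in P and spread widely in P. Early torpor levels were -0.90, -0.28, -1.13, and -0.31, and late torpor levels -0.49, -0.23, 0.23, -0.09, and -0.38. Early arousal gave 0.55, 0.32, 0.91, and 0.78, and late arousal -0.01, 1.47, 0.00, and -0.61. P spanned -0.33 to 1.66 with a median of 0.43. All 4 early arousal animals lay above all 9 T animals, whereas 3 of the 4 late arousal animals lay inside the T range.

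CHORDC1 differed by -0.89 between T and P (SE 0.27, adjusted p = 0.0353), the call nearest to the threshold among the 6 genes. It was called in 17 of 24 fits that left out 1 array, and was lost without early torpor replicate 1 or 3, late torpor replicate 1, or P replicate 2, 3, 6, or 7, with adjusted p between 0.0526 and 0.0983. With the filter block it was -0.63 (95% interval -1.38 to 0.12, adjusted p = 0.598), and on A1 filters alone -0.98 (adjusted p = 0.31). T and A differed by -0.82 (95% interval -1.36 to -0.29, adjusted p = 0.121).

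**Figure D2:**
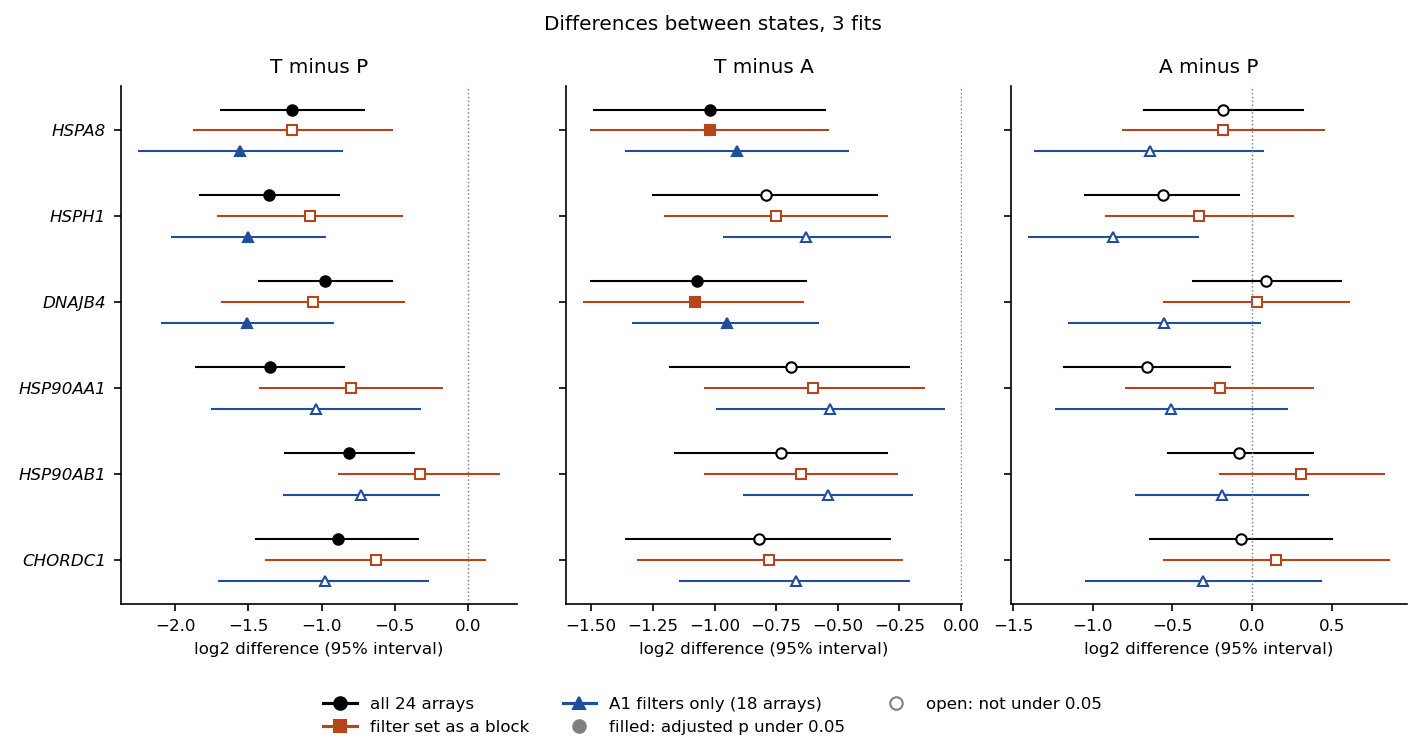
The log2 difference of each gene (horizontal axis, bars are 95% intervals) between T and P, T and A, and A and P, over all 24 arrays, with the filter block, and on the 18 A1 filters alone, with filled symbols at an adjusted p under 0.05. All 6 genes lie left of 0 in the first 2 panels, and the block leaves 0 of the 6 called between T and P but leaves HSPA8 and DNAJB4 called between T and A.

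Over the group, all 6 genes were lower in T than in P and all 6 were called, with a median difference of -1.09. Among all probes 4.35% of 9599 were called as lower in T than in P, and among the 1329 named genes 21.7%, with median differences of -0.02 and -0.05. As the list of names was chosen over these states, the count of 6 of 6 has to be read against the second share. With the filter block 0 of the 6 genes were called, and 0.573% of 9599 probes and 1.88% of the named genes were called as lower in T. On A1 filters alone HSPA8, HSPH1, and DNAJB4 were called, against 0.584% of 9593 probes and 1.81% of the named genes. All 6 differences stayed negative in each of these fits. The identifier prefix of the animals also moved with the state: the prefix 04 was borne by 7 of 9 T animals, 7 of 8 A animals, and 1 of 7 P animals. With it as a block HSPA8, HSPH1, and HSP90AA1 were called between T and P, and 1.98% of 9599 probes and 8.43% of the named genes were called as lower in T.

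Between T and A, all 6 genes were lower in T, and HSPA8 and DNAJB4 were called. They were 2 of the 8 probes called as lower in T, which is 0.0833% of 9599 probes and 0.602% of the named genes. The median difference of the 6 genes was -0.81, against 0.05 over all probes and 0.19 over the named genes. The paper had already reported this direction for most of the 6 genes on these arrays. The shared direction and the median are therefore not independent evidence. Most calls of this comparison ran the other way, with 37 of 45 probes higher in T. Quantile normalization turned that split to 4 higher and 13 lower of 17 probes, called the same 2 genes, and moved HSPA8 to -1.41 (adjusted p = 0.00705). Of the 7 hepatocyte markers 6 were higher in T than in A, with a median difference of 0.54 over the 7, and 1 was called, APOB (0.86, adjusted p = 0.011), which after quantile normalization was at 0.47 (adjusted p = 0.324). The marker that was not higher, FGB, had levels of 5.03 ± 0.72 in T and 5.53 ± 0.69 in A. The methods' test, an analysis of variance with Tukey's comparison after selection by q, called all 6 genes as lower in T than in A, as it did 1.41% of 9593 probes and 6.77% of the named genes. It is the test by which the study picked its genes on these arrays. Its count of the 6 genes repeats that choice and is no separate support.

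Between A and P, 0 of the 6 genes were called by limma, against 8.47% of 9600 probes and 512 of the 1329 named genes. Of the 813 probes called, 562 were lower and 251 higher in A, a split that quantile normalization turned to 283 and 293. HSPH1 and HSP90AA1, both lower in A, passed an unadjusted p under 0.05, and the methods' test called 0 of the 6. The other differences were -0.18 for HSPA8 (95% interval -0.68 to 0.32), 0.09 for DNAJB4 (-0.37 to 0.56), -0.08 for HSP90AB1 (-0.53 to 0.38), and -0.07 for CHORDC1 (-0.64 to 0.50). These 4 intervals reach at least 0.53 in 1 direction, so that a like level in A and P is not shown.

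**Figure D3:**
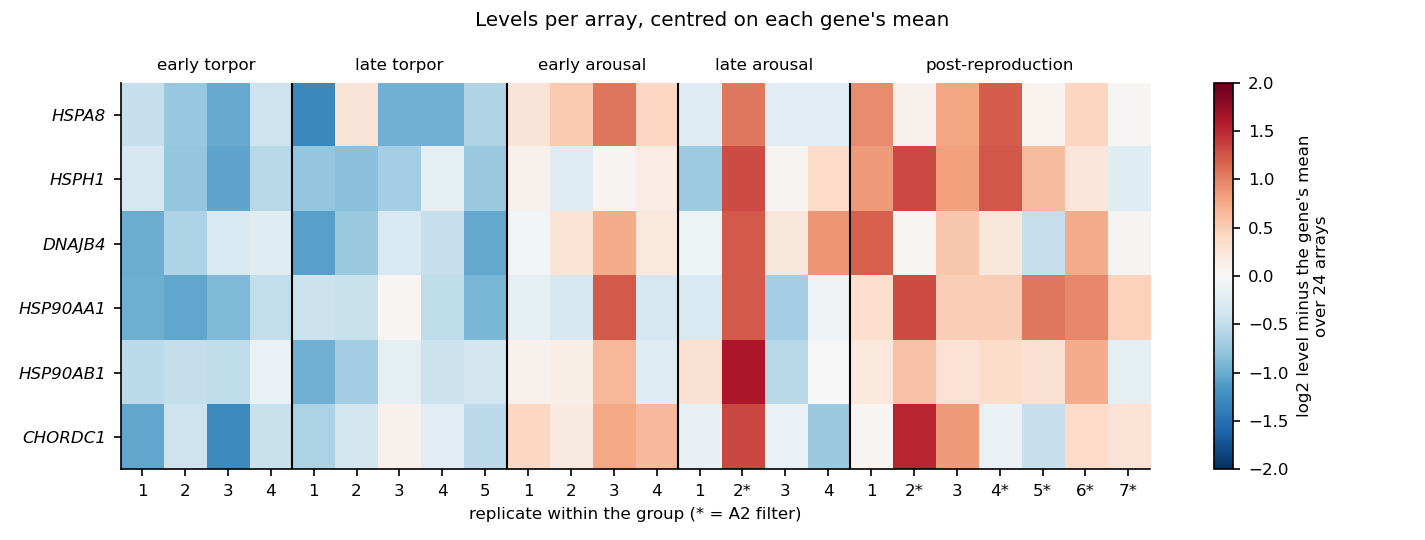
The log2 level of each gene on each array after subtraction of the mean of that gene over the 24 arrays (colour, red above and blue below the mean), with arrays as columns by group and replicate and an asterisk at A2 filters. Torpor is blue in nearly every cell, early arousal replicate 3 and late arousal replicate 2 are red in columns, and late arousal replicates 1 and 3 are mostly pale or blue.

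Within arousal, 2 animals stood high for most of the genes. Late arousal replicate 2 had the highest level of its group for 6 of the 6 genes, while it was the highest of the 4 for 32.4% of all probes. Its level exceeded that of every T animal for all 6 genes, and the mean of its 6 levels after centring each gene was 1.29, the highest of all 24 arrays. Early arousal replicate 3 was highest of its group for 5 of the 6 genes, against 29.9% of all probes, with a centred mean of 0.75. The other 6 A animals had centred means between -0.22 and 0.14. Late arousal replicates 1 and 3 exceeded the highest T animal for 2 of 6 genes each, and the remaining early arousal animals for 4 of 6 each. Other animals ranked differently by gene: early arousal replicate 4 was highest of its group for HSPH1 (1.93) and lowest for HSP90AA1 (1.42) and HSP90AB1 (1.30).

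In torpor the centred means ran from -0.86 to -0.33 over 9 animals, and in P from 0.07 to 0.81 over 7. The lowest centred means of P, 0.07 and 0.18, belonged to P replicates 7 and 5, both on A2 filters. Early torpor replicate 4 held the highest level of its group for 4 of the 6 genes, and late torpor replicate 3 likewise. Late arousal replicate 2 had an array median signal of 102, inside the range of the other arousal arrays (84.3 to 132), and 94 spots marked as empty, above their 55 to 90. Its filter set differs from that of the other 7 A animals, so that animal and filter cannot be told apart on this array.

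**Figure D4:**
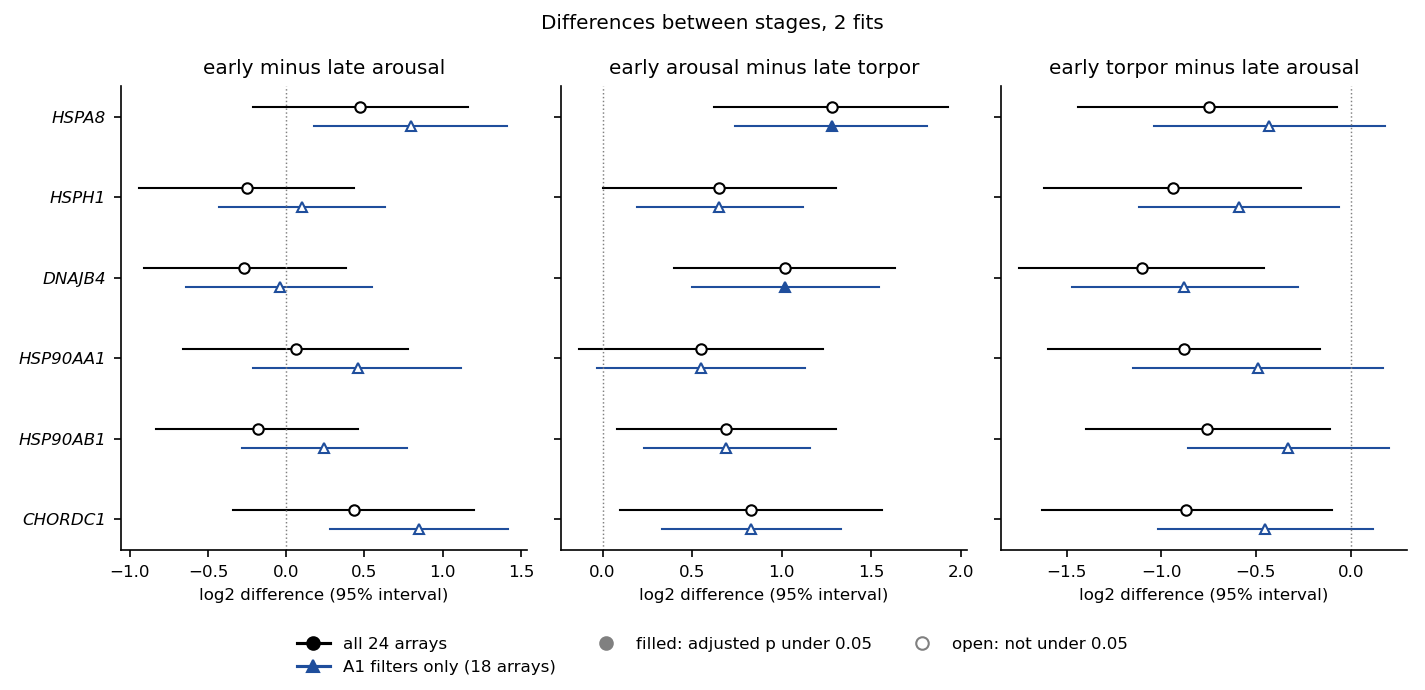
The log2 difference of each gene (horizontal axis, bars are 95% intervals) between early and late arousal, early arousal and late torpor, and early torpor and late arousal, over all 24 arrays and on the 18 A1 filters alone, with filled symbols at an adjusted p under 0.05. In the first panel HSPA8 and CHORDC1 move from 0.47 and 0.43 to 0.80 and 0.85 on A1 filters, and no symbol is filled.

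Early arousal was compared with late arousal to see whether the levels shift within an arousal episode. By limma 0 of the 6 genes were called, as were 0% of 9597 probes, and 748 probes passed an unadjusted p under 0.05. HSPA8 was higher in early arousal by 0.47 (95% interval -0.21 to 1.16) and CHORDC1 by 0.43 (-0.34 to 1.20), at adjusted p of 0.768 and 0.823. HSP90AA1 differed by 0.06 (-0.66 to 0.78), HSP90AB1 by -0.18 (-0.83 to 0.46), HSPH1 by -0.25 (-0.94 to 0.43), and DNAJB4 by -0.27 (-0.91 to 0.38). Every interval holds 0 and reaches at least 0.78 in 1 direction.

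This comparison rested on late arousal replicate 2. On A1 filters alone, without it, the 3 remaining late arousal animals stood at 3.79, 3.81, and 3.81 for HSPA8 and at -0.01, 0.00, and -0.61 for CHORDC1, below all 4 early arousal animals for both genes. Such a separation, 3 late arousal animals below 4 early arousal animals, was found for 2.06% of 9521 probes, and for 2 of the 6 genes. The difference of HSPA8 was then 0.80 (SE 0.29, unadjusted p = 0.0133, adjusted p = 0.58) and that of CHORDC1 0.85 (SE 0.27, unadjusted p = 0.00561, adjusted p = 0.505), and neither was called. HSPH1 turned from -0.25 to 0.10 and HSP90AB1 from -0.18 to 0.24. DNAJB4 moved to -0.04.

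Early torpor was next compared with late torpor. The differences, early less late, were -0.46 for CHORDC1 (95% interval -1.19 to 0.26) and -0.40 for HSP90AA1 (-1.08 to 0.29), and the other 4 lay between -0.04 and 0.18. By limma 0 of the 6 genes and 0% of 9595 probes were called, with 458 probes at an unadjusted p under 0.05. With 4 and 5 animals the farther ends of the intervals lay between 0.68 and 1.19 in size, so that differences within torpor up to there are not excluded.

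Across rewarming, from late torpor to early arousal, all 6 genes were higher after rewarming. These animals are part of the comparison of T with A, so the direction is not independent of how the genes were chosen. HSPA8 had the largest difference, 1.28 or 2.42-fold (SE 0.32), and missed the threshold (adjusted p = 0.054). DNAJB4 differed by 1.02 (adjusted p = 0.106), CHORDC1 by 0.83 (adjusted p = 0.309), HSP90AB1 by 0.69 (adjusted p = 0.31), HSPH1 by 0.65 (adjusted p = 0.385), and HSP90AA1 by 0.55 (adjusted p = 0.542). Late torpor lay below early arousal without overlap for DNAJB4 and CHORDC1, as it did for 1.08% of 9511 probes. Of those 103 probes, 39 were among the 1329 named genes. By limma 0 of the 6 genes were called, and 0.0104% of 9596 probes were called as higher in early arousal, 1 probe in all, against 63 as lower, and after quantile normalization 1 probe each way.

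HSPA8 passed the threshold in this comparison when the filter set was a block (adjusted p = 0.0426), on A1 filters alone (adjusted p = 0.0238), after normexp correction (1.46, adjusted p = 0.0155), after quantile normalization (1.81, adjusted p = 0.0154), and without dim probes (adjusted p = 0.0462). It also passed without late torpor replicate 2 (1.52, adjusted p = 0.031) and without late arousal replicate 2 (1.28, adjusted p = 0.0323). These were the only 2 passes of HSPA8 in 24 fits that left out 1 array, and its adjusted p reached 0.143 in the others. HSPA8 did not pass in the remaining alternatives either, among them the identifier prefix as a block and the deposited ratio. DNAJB4 passed on A1 filters alone (adjusted p = 0.0468), and was 0.02 after normexp correction (adjusted p = 0.958). The median of the 6 genes was 0.76, against -0.06 over all probes and -0.19 over the named genes.

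On return to torpor, from late arousal to early torpor, all 6 genes were lower in early torpor, with differences from -1.10 for DNAJB4 (adjusted p = 0.294) to -0.75 for HSPA8 (adjusted p = 0.543). This direction too is not independent of how the genes were chosen. Early torpor lay below late arousal without overlap for HSPA8 and DNAJB4, as it did for 1.72% of 9495 probes. Of those 163 probes, 44 were among the 1329 named genes. By limma 0 of the 6 genes and 0% of 9597 probes were called, with 773 probes at an unadjusted p under 0.05. The unadjusted p of the 6 genes lay between 0.00171 for DNAJB4 and 0.0327 for HSPA8. On A1 filters alone, which drop late arousal replicate 2, the median of the 6 differences went from -0.87 to -0.47.

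The order of the 5 groups by mean level was not the same for the 6 genes. Early and late torpor held the lowest 2 places for every gene. Early arousal was highest for HSPA8 and CHORDC1, late arousal for DNAJB4 and HSP90AB1, and P for HSPH1 and HSP90AA1. Among the 3 upper groups no pair of neighbours differed by more than the larger of their SDs. The step from the upper groups down to torpor exceeded it for HSPA8 (0.75 against an SD of 0.64), HSPH1 (0.65 against 0.27), DNAJB4 (0.83 against 0.34), and HSP90AB1 (0.57 against 0.38). It did not for HSP90AA1 (0.49 against 0.83) and CHORDC1 (0.40 against 0.88), for which late torpor was instead above early torpor by more than the SD (0.40 against 0.34 and 0.46 against 0.43).

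The filter set was also tested as a term of its own. With the state in the fit, A2 filters were higher than A1 filters by 0.77 for HSP90AA1 (adjusted p = 0.0587) and by 0.67 for HSP90AB1 (adjusted p = 0.063). The coefficients were 0.39 for HSPH1 (95% interval -0.22 to 0.99), 0.37 for CHORDC1 (-0.34 to 1.09), 0.002 for HSPA8 (-0.64 to 0.64), and -0.11 for DNAJB4 (-0.71 to 0.48). By limma 0 of the 6 genes were called, and these 2 Hsp90 genes passed an unadjusted p under 0.05. Much of both rested on late arousal replicate 2, without which they were 0.44 (adjusted p = 0.496) and 0.11 (adjusted p = 0.856), smaller in size than DNAJB4 at -0.75 (adjusted p = 0.133) and HSPA8 at -0.50 (adjusted p = 0.441).

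Within P, where both filter sets occur, the 2 animals on A1 filters had means of 4.90 for HSPA8, 2.62 for HSPH1, -0.90 for DNAJB4, 2.16 for HSP90AA1, 1.80 for HSP90AB1, and 0.58 for CHORDC1. The 5 animals on A2 filters had means of 4.40 ± 0.50 (SD) for HSPA8, 2.42 ± 0.66 for HSPH1, -1.65 ± 0.43 for DNAJB4, 2.60 ± 0.37 for HSP90AA1, 1.91 ± 0.35 for HSP90AB1, and 0.46 ± 0.76 for CHORDC1. The A1 animals were thus higher for 4 of the genes and lower for HSP90AA1 and HSP90AB1. With 2 animals on 1 side no test was made within P.

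The clones of 5 of the 6 genes came from liver cDNA library 104, which supplied 21.3% of the 1329 named genes, and the clone of HSP90AB1 came from the brain library 102, which supplied 34.6%. None of the 6 spots was marked as empty on any array, and none held the highest signal found over all arrays. Saturation of the scanner was not tested. After centring, the pair closest over the 24 arrays was HSP90AA1 and HSP90AB1, with a root mean square distance of 0.421 on the log2 scale, and the pair farthest apart was DNAJB4 and CHORDC1, at 0.613.

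Among the 1312 named probes without missing values, and leaving out the 6 genes themselves, the 5 closest to their mean centred profile were UBQLN1 (root mean square distance 0.306), CCDC117 (0.369), SPOP (0.396), PAQR9 (0.397), and SUGT1 (0.397). This is a description over 24 arrays of genes that were all chosen for a difference between states. The mean level of UBQLN1 was 1.83 in early torpor, 1.98 in late torpor, 2.38 in early arousal, 2.67 in late arousal, and 3.20 in P. SUGT1, an Hsp90 cochaperone, had means of 0.15 and 0.21 in early and late torpor, 0.39 and 0.64 in early and late arousal, and 0.77 in P.

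**Figure D5:**
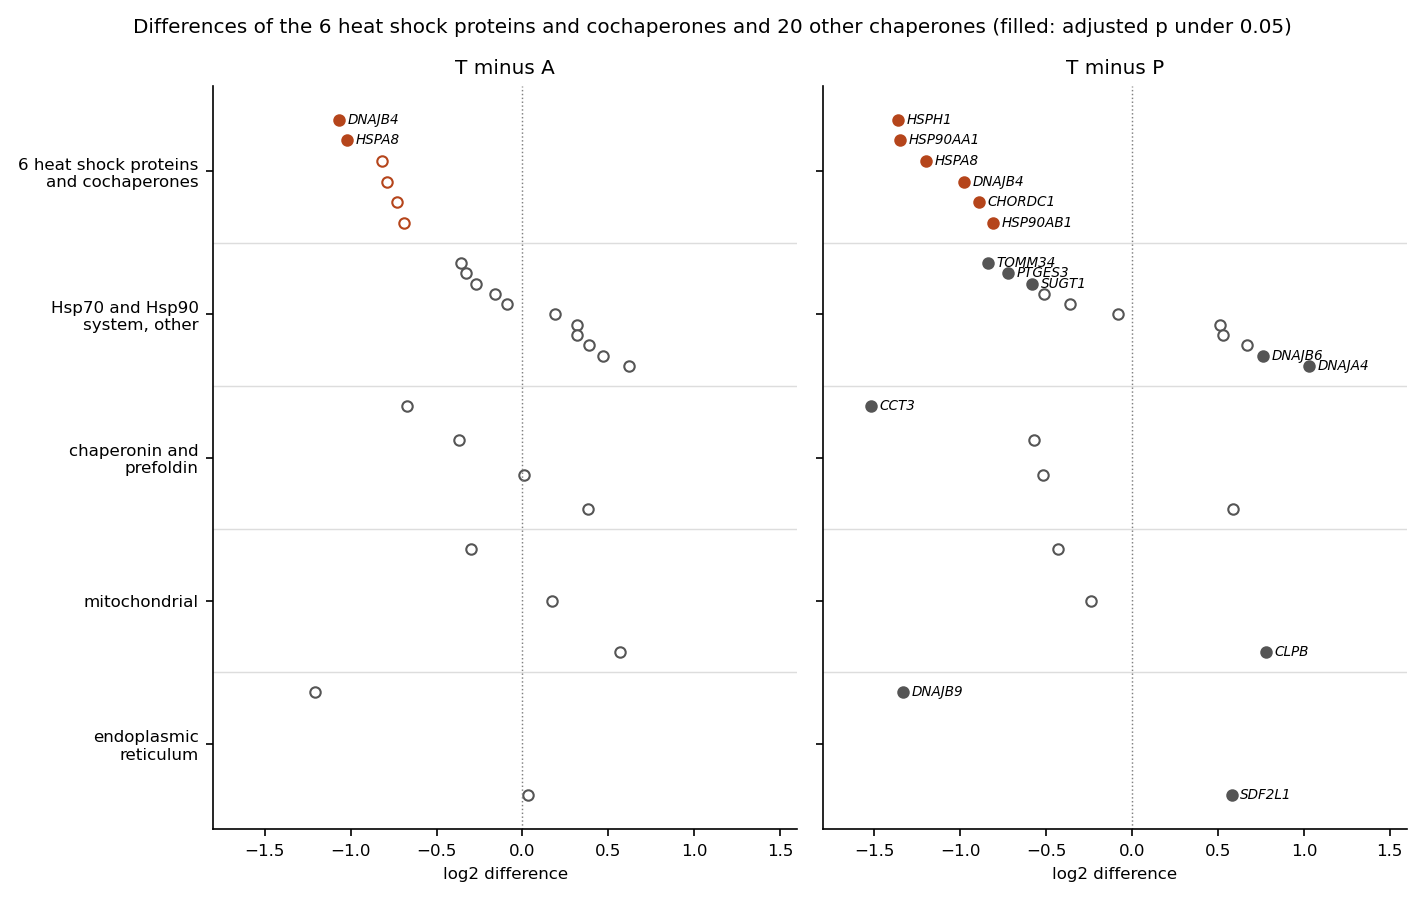
The log2 difference (horizontal axis) between T and A and between T and P of the 6 genes and of 20 other chaperone genes by class, 1 point per gene, filled at an adjusted p under 0.05 and named where filled. The 6 genes lie left of 0 in both panels, and the 20 other genes lie on both sides. Both sets were chosen with earlier results of these data known.

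The other chaperone genes of the list did not share a direction. Between T and A, 0 of the 20 were called by limma, against 2.33% of the 1329 genes with a name in either direction. Of the 20, 9 were lower in T and 11 higher, and their median difference was 0.02, with 3 lower and 3 higher at an unadjusted p under 0.05. DNAJB9, a J-domain protein of the endoplasmic reticulum, had the largest difference of the 20, at -1.21 (adjusted p = 0.0523), and was called with the filter block (-1.21, adjusted p = 0.0433). Its levels were -1.0 ± 0.57 in T, 0.21 ± 0.85 in A, and 0.33 ± 0.49 in P.

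Between T and P, 9 of the 20 were called, 5 lower and 4 higher in T, with a median of -0.30. The share is near that of the 1329 genes with a name, of which 47.3% were called in either direction, 288 lower and 340 higher. Lower in T were CCT3, a subunit of the cytosolic chaperonin (-1.52, adjusted p = 0.00271), DNAJB9 (-1.33, adjusted p = 0.00773), the Hsp90 and Hsp70 binding protein TOMM34 (-0.84, adjusted p = 0.0374), PTGES3, the p23 cochaperone of Hsp90 (-0.72, adjusted p = 0.017), and SUGT1 (-0.58, adjusted p = 0.0289). Higher in T were the J-domain proteins DNAJA4 (1.03, adjusted p = 0.043) and DNAJB6 (0.76, adjusted p = 0.0246), CLPB, a disaggregase of mitochondria (0.78, adjusted p = 0.0191), and SDF2L1 of the endoplasmic reticulum (0.58, adjusted p = 0.0274). By class, the Hsp70 and Hsp90 system had 3 lower and 2 higher of 11, chaperonin and prefoldin 1 lower of 4, mitochondria 1 higher of 3, and the endoplasmic reticulum 1 of each of 2. With the filter block 0 of the 20 were called between T and P, and TOMM34 went from -0.84 to 0.06.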

How the data were processed

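Liver RNA of 24 AGS was hybridized to membranes with 9600 cDNA probes. The authors deposited the spot and background intensity that ImaGene 6.1.0 read from each membrane, per the file headers. Their deposited processed table holds a ratio, signal less background over the array median, in which empty or non-positive spots stand at 0.002. From the intensity this ratio was computed again on the log2 scale, with the 668 of 230400 non-positive spots missing. Array median signal was 54.1 to 132 over a background of 13.3 to 19.9, and the number of arrays limits the precision.

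Probes were paired with gene symbols by state means within 0.0001. The largest distance accepted was 5e-06, and the next best probe was never closer than 0.00532. All 6 genes passed without a filter. The members and lists were chosen with earlier results of these data known. Of the 1329 named genes, values are given for the 6 members, for those of 20 other chaperones that were called between T and A or T and P or that a member is set beside, for the 5 other probes of nearest profile, and for cell type markers.

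Differences were tested with limma 3.58.1 in R 4.3.3 (lmFit and eBayes) over all probes, with early and late stages pooled for T, A, and P, and in 5 groups for the stages. The p-values are 2-sided and were adjusted by the Benjamini-Hochberg method. The fits were checked on simulated data. Alternatives were normexp background correction, quantile normalization, a floor of 0.002, the deposited ratio, a filter on dim probes (signal over 2 times the background on 7 arrays or more), blocks for filter set or identifier prefix, A1 filters only, a fit of 5 groups, the analysis of variance with Tukey's comparison named in the methods, and leaving out each array. Tables used pandas 2.3.3 and numpy 2.4.6, and plots matplotlib 3.10.9. Sequences and coordinates of the clones are not used here.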

Additional observations from a re-analysis of the deposited data

Results flagged for a closer look

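Over 42 groups of 4 to 9 animals, 4 values of the 6 genes stood apart from the rest of their group, and chance alone sets about 1 in 20 groups apart. The groups overlap, as T and A were taken both by stage and pooled, and all genes were read on the same animals. They are therefore not 42 separate chances. HSPA8 of late arousal replicate 2, at 5.09, was separated from the other 3 late arousal animals by 0.981 of the range of the group. HSP90AA1 of early arousal replicate 3, at 2.97, was separated by 0.904 of the range of its group. HSPH1 of late torpor replicate 4, at 1.60, and HSP90AB1 of early torpor replicate 4, at 1.41, were separated by 0.756 and 0.892 of theirs. All 4 were the highest values of their groups, and the first lay on an A2 filter.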

How the results depend on the processing

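Differences of the 6 genes between T and P, between T and A, from late torpor to early arousal, and from early torpor to late arousal kept their direction in every alternative run. The count of genes called between T and P, 6, went to 0 with the filter block and to 3 on A1 filters only, with the identifier prefix as a block, and after normexp correction, and ranged from 5 to 6 when 1 array was left out. On A1 filters alone P has 2 animals. Between T and A, 2 genes were called, against 1 after normexp correction, 6 by the methods' test, and 1 to 3 when 1 array was left out. Between early arousal and late torpor the count of 0 went to 2 on A1 filters only and to 1 with the filter block, after normexp correction, after quantile normalization, and without dim probes, and to 0 to 1 when 1 array was left out. The cause of these changes was not tested. Between A and P the count was 0 to 2 when 1 array was left out, and between A2 and A1 filters 2 (HSP90AA1 and HSP90AB1) with the identifier prefix as a block and 0 to 2 when 1 array was left out. Over all probes, the 946 calls between T and P went to 543 after normexp correction, 93 with the filter block, 86 on A1 filters only, and 524 with the prefix block, and the 45 between T and A to 17 after quantile normalization, 124 with the filter block, 132 on A1 filters only, and 598 by the methods' test. The 813 calls between A and P went to 1752 after normexp correction, 260 with the filter block, 84 on A1 filters only, and 243 with the prefix block, and the 64 between early arousal and late torpor to 709 after normexp correction, 2 after quantile normalization, 148 with the filter block, 140 on A1 filters only, and 28 with the prefix block. For the filter coefficient the filter block and A1 filters only could not be run, as the filter set is the term itself.

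The differences that turned sign were all uncalled. Between A and P they were 0.08 and 0.27 for HSPA8 after normexp correction and quantile normalization, -0.55 and -0.13 for DNAJB4 on A1 filters only and after normexp correction, 0.31, 0.06, 0.12, and 0.14 for HSP90AB1 with the filter block, with the prefix block, after normexp correction, and after quantile normalization, and 0.15 and 0.01 for CHORDC1 with the filter block and after normexp correction. Between early and late arousal they were 0.10 for HSPH1 and 0.24 for HSP90AB1 on A1 filters only, and between early and late torpor 0.03 for HSPH1 and -0.14 for DNAJB4 after normexp correction. The filter coefficient turned to -0.001, -0.08, and -0.01 for HSPA8 with the prefix block, after normexp correction, and after quantile normalization, and to 0.05 for DNAJB4 after normexp correction. With 1 array left out, differences between A and P ranged from -0.04 to 0.24 for DNAJB4, -0.27 to 0.04 for HSP90AB1, and -0.22 to 0.13 for CHORDC1. Those between early and late arousal ranged from -0.58 to 0.10 for HSPH1, -0.31 to 0.46 for HSP90AA1, and -0.48 to 0.24 for HSP90AB1, and those between early and late torpor from -0.10 to 0.29 for HSPA8 and -0.15 to 0.09 for HSPH1. The filter coefficient ranged from -0.50 to 0.21 for HSPA8, -0.20 to 0.60 for HSPH1, -0.75 to 0.27 for DNAJB4, and -0.13 to 0.75 for CHORDC1. No paired analysis was possible because each animal was killed when sampled and so belongs to 1 group only.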
